A study of Mus musculus with 103 samples.

Results

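The genes described here encode enzymes and regulators of fatty acid synthesis: Thrsp, Scd1, Fasn, Acly, Acaca, Elovl6, Srebf1 and Me1. They were chosen as a list of 8 genes, and every probe set that the array annotation assigns to 1 of them was taken. Of the 8 genes, 7 had such a probe set, 14 probe sets in all, among 17097 genes with one on the array. No probe set was named for Srebf1 in the annotation used here, so it has no value below. Where a gene had several probe sets, the one with the highest mean over all samples stands for it, and the others are given where they differ. On GRCm38.p6, in RefSeq, Thrsp lies at chr7:97412933-97417550, Scd1 at chr19:44394450-44407709, Elovl6 at chr3:129532386-129638495 and Me1 at chr9:86581363-86695914. Chromosome 11 holds Fasn at chr11:120805958-120825166, Acly at chr11:100476352-100528000, Acaca at chr11:84129635-84401651 and Srebf1 at chr11:60199084-60224186.

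The series holds 103 Affymetrix mouse arrays in 29 groups. Of these, 56 were dissected primary tumours, 7 dissected metastases and 40 samples of sorted cells, captured on beads through Prominin1, the product of Prom1. Liver tumours were hepatoblastoma (n = 2) and tumours labelled hepatocellular carcinoma/cholangiocarcinoma (HCC/CC, n = 14). Sorted liver cells were neonatal (n = 3), from DDC-treated liver (n = 9; DDC damages hepatocytes and bile ducts) or untreated (n = 5). Other primary tumours were adenocarcinoma of lung (n = 2), prostate (n = 8) and stomach (n = 4), adenoma of stomach (n = 7), small intestine (n = 3) and large intestine (n = 5), uterine carcinoma (n = 3), and skin tumours labelled squamous cell carcinoma, 4 perineal, 3 perioral and 1 periorbital. Other sorted cells came from lung (n = 4), prostate (n = 3), stomach (n = 2), small intestine (n = 3), uterus (n = 4), kidney (n = 4) and salivary gland (n = 3). According to the design text, Prom1-expressing cells were followed by lineage tracing and given conditional oncogenic changes, but the labels give no genotype, Cre line, strain, age in days or DDC dose, nor the gene change behind a tumour. Nor do they say that each sample is another animal, so a p-value below reflects the scatter between these samples alone, which may be technical. Samples are numbered within a group in the order of their records.

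Fatty acid synthesis turns surplus carbohydrate into fat in the cytosol of liver, adipose tissue and sebaceous glands. Citrate exported from mitochondria is split by ATP citrate lyase (Acly) into acetyl-CoA, which acetyl-CoA carboxylase 1 (Acaca) carboxylates to malonyl-CoA. Fatty acid synthase (Fasn) joins these units into palmitate with NADPH, part of which malic enzyme 1 (Me1) supplies. Elovl6 lengthens palmitate to stearate, and Scd1 places a double bond in both. Thrsp, known as Spot 14, is a small nuclear and cytosolic protein that responds to thyroid hormone and carbohydrate and promotes lipogenesis. Srebf1 encodes SREBP-1, a transcription factor of the pathway. In liver these genes respond to feeding and fasting, and the labels do not give the feeding state.

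RefSeq gave a window of 250 bases before and 50 after a start for every listed gene but Scd1, in 10 promoter windows on GRCm38.p6. The letters CCAAT, searched on both strands, stood in 6 of these 10 windows, against 37.4% of 32851 mouse windows. The E-box CACGTG stood in 0 of the 10, against 7.15% of all windows, and TCACNCCAC, a form of the sterol regulatory element searched on both strands, in 0 of the 10, against 1.24%. The GC box GGGCGG stood in 4 of the 10, against 35.7% of all windows. These 4 motifs were all that were searched, and a match is a description of letters. Which windows to print was chosen after the levels were seen. Thrsp and Fasn are shown because both were lower in neonatal liver cells, and Elovl6 as a gene that was not called there. CCAAT also stood in windows of Acly and Me1, which were not called there, and in windows of Srebf1. The Acly match lay after the start, at position 38, and the Me1 match at -208 in its second window. Whether these letters bear on the levels was not tested. Capitals mark CCAAT or its complement, read 5′ to 3′ along the strand of the gene.
Thrsp, chr7:97417501-97417800, minus strand: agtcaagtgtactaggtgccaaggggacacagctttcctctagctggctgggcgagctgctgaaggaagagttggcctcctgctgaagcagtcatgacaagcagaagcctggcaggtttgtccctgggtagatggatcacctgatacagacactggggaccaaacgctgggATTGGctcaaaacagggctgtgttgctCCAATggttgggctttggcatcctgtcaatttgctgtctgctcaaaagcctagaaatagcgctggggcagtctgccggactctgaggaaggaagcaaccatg
Fasn, chr11:120824498-120824797, minus strand: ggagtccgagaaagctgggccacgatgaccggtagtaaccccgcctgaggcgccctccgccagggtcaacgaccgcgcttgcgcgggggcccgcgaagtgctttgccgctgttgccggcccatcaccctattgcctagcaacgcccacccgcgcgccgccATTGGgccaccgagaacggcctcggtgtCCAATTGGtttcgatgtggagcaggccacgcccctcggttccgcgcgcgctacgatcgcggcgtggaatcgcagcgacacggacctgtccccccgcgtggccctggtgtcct
Elovl6, chr3:129532136-129532435, plus strand: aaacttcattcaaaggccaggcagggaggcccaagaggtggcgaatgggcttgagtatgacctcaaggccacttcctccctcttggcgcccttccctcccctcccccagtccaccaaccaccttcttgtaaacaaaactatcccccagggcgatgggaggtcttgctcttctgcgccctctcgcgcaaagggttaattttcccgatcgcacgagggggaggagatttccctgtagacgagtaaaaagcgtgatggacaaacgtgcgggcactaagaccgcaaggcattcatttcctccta
The Thrsp window held CCAAT on its minus strand at position -79 from the start and on its plus strand at -52. The Fasn window held it at -90, -62 and -59, the last 2 overlapping on opposite strands. The Elovl6 window held none of the letters searched.

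Values are log2 levels, which the authors deposited on that scale, and differences are log2 differences ± the standard error (SE) of limma. The threshold for a call was an adjusted p under 0.05 together with a difference of 1 or more in size, and the words rose and fell are kept for called genes. Levels under the filter value, 4.06 for sorted cells, lie near the background of the array. Levels of different genes come from different probe sets and are not set against each other. Array medians lay between 3.82 and 4.24. Prom1 averaged 3.45 in untreated liver cells, under the filter value (2.64 to 4.24, with 4 of 5 samples under it), and 10.29 in neonatal liver cells. Hepatocyte markers, 13 of 14 measured, had list means of 11.85 to 12.07 in hepatoblastoma, 10.87 to 12.49 in HCC/CC, 11.92 to 12.24 in neonatal, 10.17 to 12.56 in DDC and 11.10 to 12.64 in untreated liver cells. In bulk samples fewer cells of a type and less RNA per cell cannot be told apart.

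In neonatal liver cells, Thrsp, Scd1 and Fasn were far lower than in untreated liver cells, while Acly, Acaca, Elovl6 and Me1 were not called. Thrsp was 2.92, 3.23 and 2.88 in the 3 neonatal samples, against 10.91, 8.92, 10.66, 11.43 and 11.51 in the 5 untreated samples. The neonatal levels of this lipogenic regulator all lay under the filter value and far below every untreated sample. Its difference of -7.68 ± 0.69 (adjusted p = 1.4e-10, limma) is therefore a lower bound on the size.

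Scd1, the desaturase that makes oleate and palmitoleate, was 6.28, 7.75 and 6.69 in neonatal samples, against 12.59, 11.40, 11.36, 13.04 and 13.01 in untreated samples. The groups did not overlap, as for Thrsp and for 38.5% of genes tested. Scd1 was 41.4-fold lower (difference -5.37 ± 0.43, adjusted p = 7.35e-12, limma). Its second probe set, 1415965_PM_at, fell by 2.19 on the log2 scale, with a neonatal mean of 3.80 against an untreated mean of 6.0. Fasn, the synthase itself, was 7.36, 8.02 and 7.18 in neonatal samples, against 8.11, 7.97, 10.34, 11.04 and 10.78 in untreated samples. Untreated samples 1 and 2 lay near the neonatal range and the other 3 well above it, so the groups overlapped. The Fasn difference was -2.13 ± 0.60 (adjusted p = 0.0046, limma).

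The other 4 genes were not called. Acly, which supplies acetyl-CoA, was 10.27, 10.10 and 10.35 in neonatal samples and 10.24 to 10.99 in untreated samples, a difference of -0.37 ± 0.18 (adjusted p = 0.103). Elovl6 was 8.42, 8.54 and 8.54 in neonatal samples, within the untreated range of 5.22 to 8.92, at a difference of 0.96 ± 0.62 (adjusted p = 0.214). Acaca differed by -0.92 ± 0.40 (adjusted p = 0.0613) and Me1 by -0.54 ± 0.62 (adjusted p = 0.505). Probe sets of Elovl6 opposed each other here: 1442656_PM_at fell by 2.76 on the log2 scale, called, while 1417403_PM_at was 1.33 higher and not called. Probe set 1442656_PM_at was 4.36, 4.47, 8.97, 7.50 and 9.25 in untreated samples 1 to 5 and 4.04 to 4.31 in neonatal samples. Its fall thus came from untreated samples 3, 4 and 5. Which transcript each probe set reads was not tested.

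Of the 7 genes, 3 fell and 0 rose between neonatal and untreated cells, where 30.7% of 11197 genes tested were called. Of all genes tested, 8.63% fell and 22% rose. The median difference of the 7 genes was -0.92, against 0.31 over all genes tested. Of 26 other lipogenic pathway genes 7 fell and 0 rose (median -0.62). Elovl3, an elongase of very long chain fatty acids, was 3.07 in neonatal and 10.08 in untreated cells. Acacb, the carboxylase isoform at the mitochondrial surface, was 3.67 in neonatal and 7.23 in untreated cells. Mlxipl, which encodes the carbohydrate-responsive factor ChREBP, averaged 8.16 in neonatal and 10.47 in untreated cells, but it was not among the 4 largest differences of the list and was picked after its value was seen. Of 14 fatty acid oxidation genes 7 rose and 0 fell (median 1.06), among them Acot1, an acyl-CoA thioesterase (difference 3.77), and Ehhadh, a peroxisomal oxidation enzyme (2.35). Of 15 cholesterol synthesis genes 2 rose, Sqle by 2.06 and Lss by 1.92, and 0 fell, so the share that rose was below the 22% of all genes tested. Cholangiocyte markers, 7 of 10 measured, had list means of 7.42 to 8.17 in neonatal and 3.96 to 5.05 in untreated cells, and neutrophil markers, all 7 measured, 7.09 to 8.64 in neonatal and 3.57 to 4.58 in untreated cells. The actin 3' minus 5' difference is a measure of RNA quality and is lower for more intact RNA. It was 0.80 ± 0.07 in neonatal (SD, n = 3) and 1.45 ± 0.25 in untreated cells (SD, n = 5). The upper quartile of an array averaged 6.56 in neonatal and 6.26 in untreated cells. The part of these cells and of RNA quality in the differences was not tested.

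**Figure D1:**
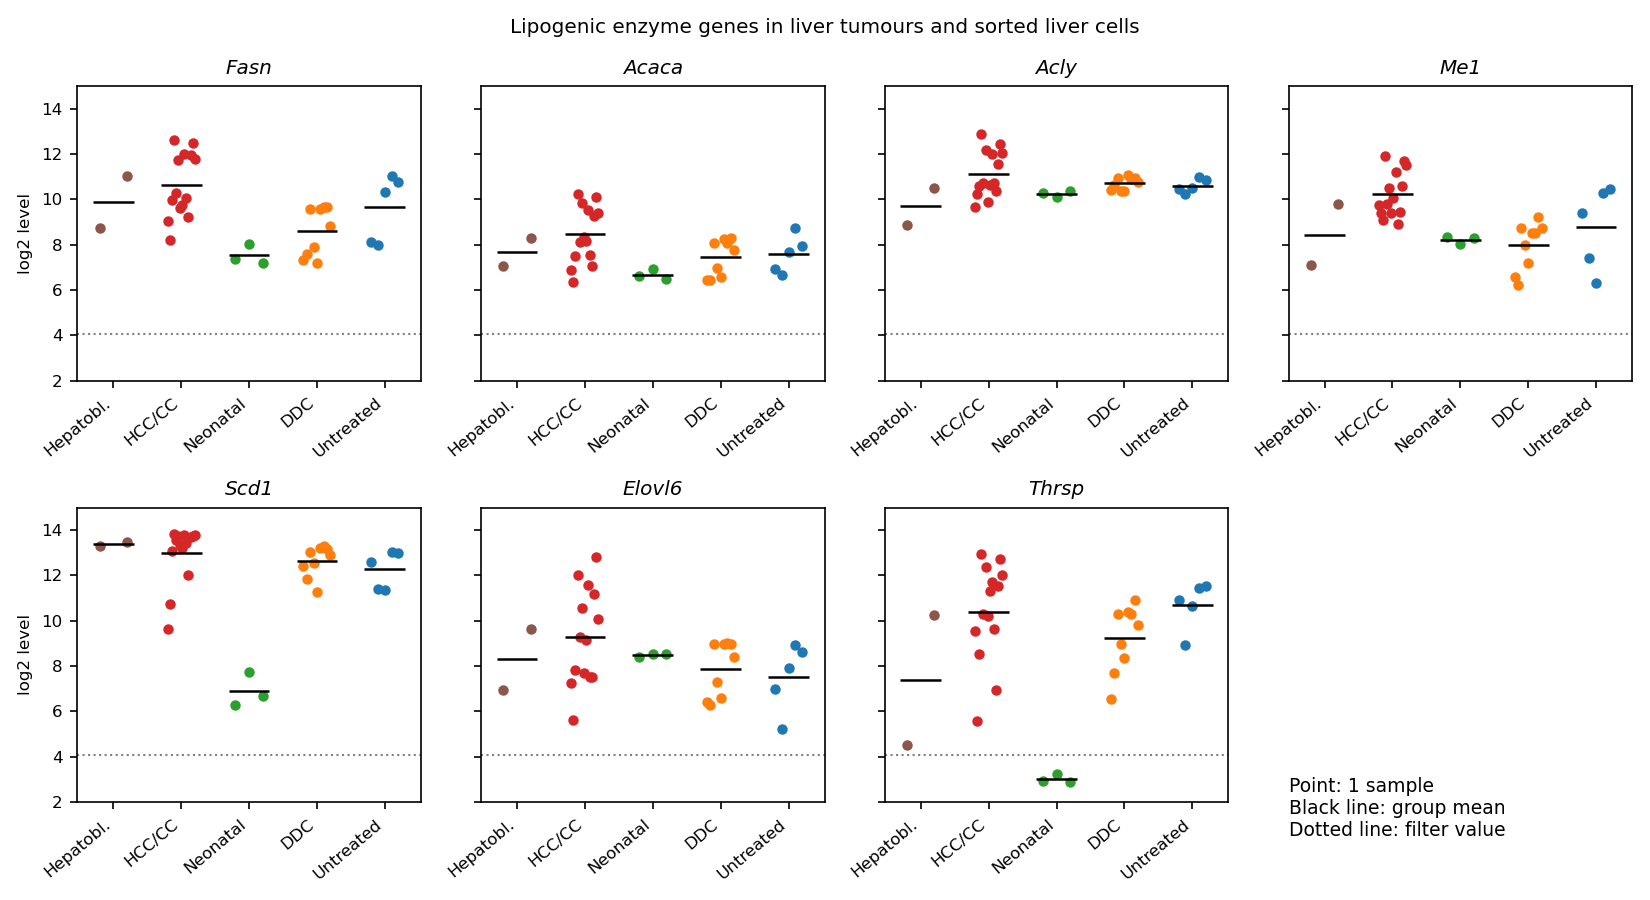
Log2 level (vertical axis) of the 7 measured genes in hepatoblastoma, HCC/CC and neonatal, DDC and untreated liver cells; each point is 1 sample, the black line is the group mean and the dotted line the filter value. Thrsp lies under the filter value in all 3 neonatal samples, and most genes spread widely within HCC/CC, DDC and untreated groups.

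Against cells from DDC-treated liver, neonatal cells had the same pair of genes lower, and the comparisons share the neonatal samples. Thrsp differed by -6.25 ± 0.63 (adjusted p = 1.94e-09, limma) and Scd1 by -5.74 ± 0.39 (adjusted p = 1.18e-13, limma). All 9 DDC samples lay above every neonatal sample for both genes, where 22% of genes tested did not overlap between these groups. Of the 7 genes 2 fell and 0 rose, where 12.5% of genes tested were called, and the median difference was -0.76, against 0.06 over all genes. Fasn differed by -1.07 ± 0.55 (adjusted p = 0.2) and Acly by -0.47 ± 0.17, under the size needed for a call. Fatty acid oxidation genes were again higher in 8 of 14 and lower in 0, led by Cyp4a10, a fatty acid omega-hydroxylase, at 10.89 in neonatal and 6.37 in DDC cells.

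After DDC, 1 of the 7 genes was called against untreated liver cells, where 21.7% of genes tested were called. Thrsp was 6.56, 7.72, 10.28, 8.98, 8.37, 10.39, 10.29, 10.91 and 9.83 in DDC samples 1 to 9, against 10.91, 8.92, 10.66, 11.43 and 11.51 in untreated samples. Its groups overlapped, and the difference was -1.43 ± 0.53 (adjusted p = 0.0293, limma). Without DDC samples 1 and 2, which had Prom1 under the filter value, the difference was -0.82 (adjusted p = 0.139) and no gene was called, an alternative chosen after seeing the data. The call was also lost without DDC sample 1, 2 or 5 or untreated sample 3, 4 or 5, with all groups in 1 fit (adjusted p = 0.124) and with array weights (adjusted p = 0.0776). Fasn differed by -1.06 ± 0.46 (adjusted p = 0.0608) and Me1 by -0.80 ± 0.48 (adjusted p = 0.176). The median difference of the 7 genes was -0.16, against 0.25 over all genes tested.

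Second probe sets of Scd1 and Acly were called after DDC, where the representative ones were not. Probe set 1415965_PM_at of Scd1 averaged 8.59 in DDC and 6.0 in untreated cells, a rise of 2.59 ± 0.48 (adjusted p = 5.89e-05, limma), while the representative one averaged 12.64 in DDC and 12.28 in untreated cells. Probe set 1425326_PM_at of Acly rose by 1.13 (adjusted p = 0.00785), against 0.10 for the representative one. It was 7.10, 3.96, 6.25, 7.46 and 7.13 in untreated samples 1 to 5 and 7.08 to 7.87 in DDC samples. Untreated sample 2, under the filter value, lay far below the rest, and a fit of this probe set without it is not given here. The highest value on any array was 14.36. Whether levels this near the top of the scale compress a difference was not tested. Probe set 1442656_PM_at of Elovl6 fell by 2.23, while the representative one differed by 0.35 ± 0.48. This probe set was 3.93 to 5.66 in DDC samples, and untreated samples 1 and 2, at 4.36 and 4.47, lay within that range. Untreated samples 3, 4 and 5, at 8.97, 7.50 and 9.25, lay above it. So the call for these 3 genes after DDC depends on the probe set. Among other lipogenic pathway genes 1 rose and 4 fell of 25 tested, with Elovl3 at 3.13 in DDC and 10.08 in untreated cells and Mlxipl lower by 2.48.

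DDC samples were themselves far apart. Fasn was 7.32, 7.60, 9.57, 7.90, 7.21, 9.59, 9.65, 9.65 and 8.80 in DDC samples 1 to 9, and Elovl6 was 6.43, 6.29, 8.98, 7.30, 6.61, 8.98, 9.03, 8.97 and 8.39. Samples 1, 2, 4 and 5 had the 4 lowest levels of each of the 7 genes. The actin 3' minus 5' difference was 0.54, 0.54, 1.29, 0.91, 0.71, 1.39, 1.38, 1.25 and 0.96 in the same order. The hepatocyte marker mean was 11.35, 10.17, 12.56, 11.92, 11.31, 12.49, 12.55, 12.56 and 12.41. Both measures were thus lowest in the samples with the lowest lipogenic levels. A low actin difference stands for more intact RNA, not for poorer RNA. Untreated sample 2 was also low, with Elovl6 at 5.22 and a hepatocyte marker mean of 11.10. The part of RNA quality and of hepatocyte content in these levels was not tested.

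HCC/CC tumours were compared with sorted cells of DDC-treated and untreated liver. Tumours were dissected and extracted with another kit than sorted cells, so tissue and handling cannot be told apart. Against untreated liver cells 0 of the 7 genes were called (23.6% of genes tested were), with 1 gene, Me1, at an unadjusted p under 0.05 by limma, and the median difference was 0.86, against 0.30 over all genes. Elovl6 averaged 9.29 in HCC/CC and 7.54 in untreated cells, a difference of 1.75 ± 0.96 (adjusted p = 0.149), and Me1 averaged 10.23 in HCC/CC and 8.76 in untreated cells, a difference of 1.47 ± 0.61 (adjusted p = 0.0571). Without HCC/CC tumours 2 and 11, which had cholangiocyte marker means over 9, both were called, an alternative chosen after seeing the data. Second probe sets of Scd1 and Acly rose by 3.52 and 1.94, and 1442656_PM_at of Elovl6 fell by 2.12, again with only untreated samples 3, 4 and 5 high. Of 26 other lipogenic pathway genes 5 rose and 2 fell, shares near the 17.4% of all genes tested that rose and the 6.23% that fell. Pnpla3, a lipid droplet lipase, rose by 2.80, Fads2, the delta-6 desaturase, by 1.67 and Pgd, an NADPH-making enzyme of the pentose phosphate pathway, by 1.64, while Elovl3 was 3.63 in HCC/CC and 10.08 in untreated cells. Fibroblast markers were higher in 6 of 6 tested and endothelial markers lower in 5 of 9, and their part was not tested.

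Against DDC liver cells, Fasn and Me1 were higher in HCC/CC. Fasn ranged over the 14 tumours from 8.20 through a median of 10.16 to 12.61, and over the 9 DDC samples from 7.21 through 8.80 to 9.65. Its difference was 2.03 ± 0.53 (adjusted p = 0.00653, limma), a 4.08-fold higher level, although the lowest tumours lay within the DDC range. Me1, which makes NADPH for synthesis, ranged from 8.91 to 11.91 in HCC/CC and from 6.21 through a median of 8.52 to 9.22 in DDC samples. Its difference was 2.27 ± 0.42 (adjusted p = 0.000487, limma), and its second probe set rose by 2.15. Of the 7 genes 2 rose and 0 fell, where 9.99% of genes tested were called, and the median difference was 1.13, against 0.04. Acaca differed by 1.02 ± 0.46 (adjusted p = 0.0931), Elovl6 by 1.40 ± 0.74 (adjusted p = 0.156) and Thrsp by 1.13 ± 0.78 (adjusted p = 0.28). Without tumours 2 and 11, 5 genes rose: Thrsp, Fasn, Acaca, Elovl6 and Me1. The share of all genes called without these tumours is not given here. Of 25 other lipogenic pathway genes tested 9 rose and 0 fell, with Pnpla3 (2.90), Fads2 (2.23), Aacs, a cytosolic acetoacetyl-CoA synthetase (2.14), and Pklr, the liver pyruvate kinase (1.86), in front. Markers of other cells moved too, with endothelial markers lower in 6 of 9 tested (list means 5.80 to 7.44 in HCC/CC and 6.98 to 10.30 in DDC cells), macrophage markers lower in 5 of 8 and fibroblast markers higher in 5 of 6. Their part in the Fasn and Me1 differences was not tested.

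**Figure D2:**
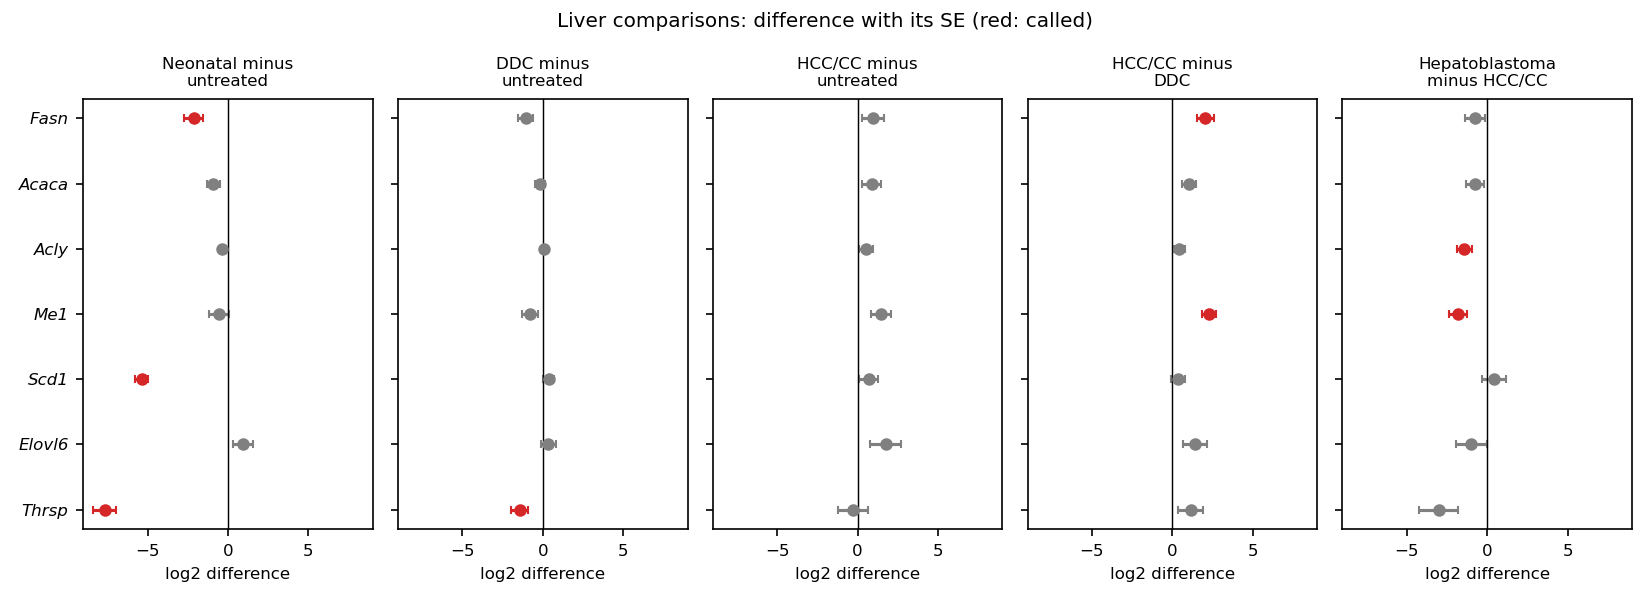
Log2 difference (horizontal axis) with its SE for each gene (rows) in 5 liver comparisons, the first-named group minus the second; red points were called and grey points were not. Thrsp and Scd1 lie far below 0 in neonatal minus untreated cells, and Fasn and Me1 above 0 in HCC/CC minus DDC.

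The 14 HCC/CC tumours ordered the 7 genes alike. Fasn was 9.04, 8.20, 9.98, 12.61, 10.26, 11.72, 9.61, 9.76, 11.98, 10.06, 9.21, 11.97, 12.47 and 11.79 in tumours 1 to 14. Elovl6 ran from 5.61 in tumour 2 through a median of 9.21 to 12.82 in tumour 13. Tumours 4, 6, 9, 12, 13 and 14 had the 6 highest levels of each of the 7 genes. Thrsp was lowest in tumour 2, at 5.57, and tumour 11, at 6.94, and highest in tumour 4, at 12.96. Scd1 was lowest in tumours 1 and 2, at 9.64 and 10.75, and between 12.03 and 13.82 in the other 12. Me1 was between 8.91 in tumour 10 and 11.91 in tumour 4.

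Over the 14 tumours the Pearson r of the 21 gene pairs ran from 0.462 (Scd1 with Me1) to 0.965 (Fasn with Acaca), with a median of 0.877. By permutation test, two-sided with 100000 permutations and Benjamini-Hochberg over 35 relations, 20 of 21 pairs passed. Spearman's rho passed for all 21. Fasn with Elovl6 had r = 0.96 (rho = 0.943). These relations and the comparison with all genes that follows were chosen after seeing the data. With the 2 tumours farthest from the median of the first gene left out, r ran from 0.495 to 0.948. Over 10435 genes measured in these tumours, the median r with Fasn was -0.0781, and 0.22% of genes had an r at or above the median of 0.907 that the other 6 genes had with it. The share was 0.182% for Acaca, 0.192% for Acly, 0.259% for Me1, 0.307% for Elovl6, 2.18% for Scd1 and 3.16% for Thrsp. The 7 genes were measured on the same arrays and share their depth and RNA.

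**Figure D3:**
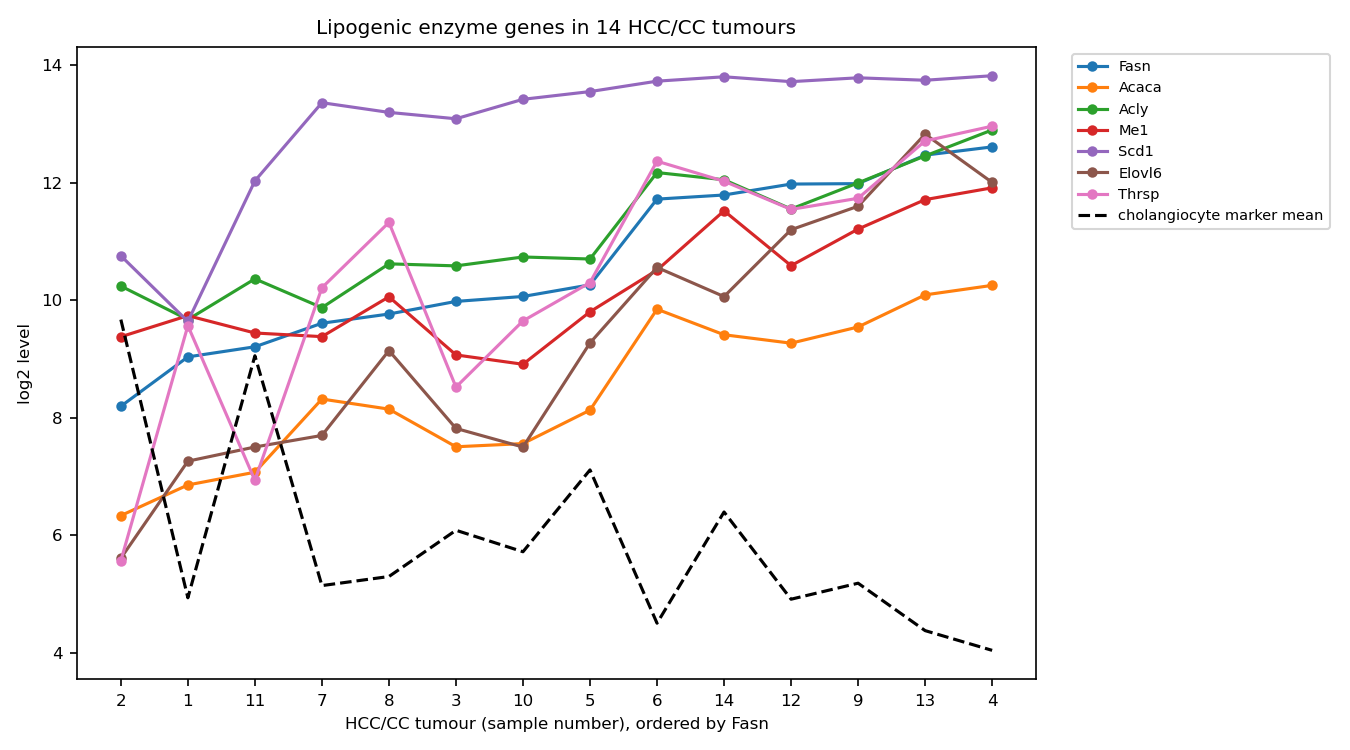
Log2 level (vertical axis) of the 7 genes in each of the 14 HCC/CC tumours (horizontal axis, sample number, ordered by Fasn), with the mean of 7 cholangiocyte markers as a dashed line; levels of different genes are not comparable. Most genes are low at tumour 2 and high at tumour 4, and tumours 2 and 11 carry the highest cholangiocyte marker means.

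Tumours 2 and 11 had cholangiocyte marker means of 9.67 and 9.06, against 4.05 to 7.12 in the other 12, and hepatocyte marker means of 10.87 and 11.37, against 11.88 to 12.49. Thrsp had an r of -0.86 with the cholangiocyte mean (rho = -0.727, adjusted p = 0.000853 and 0.00698, permutation), which was -0.543 with the 2 farthest tumours left out. For Fasn the r was -0.67 and then -0.419, and for Scd1 -0.448 and then 0.052, so these relations rest largely on tumours 2 and 11. Within the 9 tumours with title numbers over 400 the r of Thrsp was -0.851. The part of bile duct cells in the low levels was not tested.

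Hepatoblastoma rested on 2 tumours that differed from each other. Thrsp was 4.51 and 10.24 in hepatoblastoma, against 2.92, 3.23 and 2.88 in neonatal cells, and Fasn was 8.74 and 11.01 in hepatoblastoma, against 7.36, 8.02 and 7.18 in neonatal cells. Scd1 was 13.31 and 13.47 in the tumours, high in both. Against neonatal cells Scd1 was the 1 gene of 7 called, where 12.4% of genes tested were called, and it was 89.4-fold higher (difference 6.48 ± 0.46, adjusted p = 0.00597, limma). Its second probe set rose by 6.44. The median difference of the 7 genes was 1.0, against 0.01 over all genes, and Thrsp differed by 4.36 ± 1.64 (adjusted p = 0.135). The call depends on single samples: leaving out neonatal sample 1 or 3 removed it. Leaving out either hepatoblastoma sample leaves a lone tumour with no spread of its own, so no count of calls is given there. Without hepatoblastoma sample 1 all 7 genes were higher. Without hepatoblastoma sample 2 Thrsp, Scd1, Fasn and Acaca were higher and Acly, Elovl6 and Me1 lower. Elovl6 differed by 1.15 without sample 1 and by -1.55 without sample 2, so its direction depends on the tumour kept. Cholangiocyte markers were lower in 4 of 7 tested (list means 3.65 to 5.28 in hepatoblastoma and 7.42 to 8.17 in neonatal cells), endothelial markers in 4 of 9 and neutrophil markers in 3 of 6, and their part was not tested.

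Against HCC/CC, hepatoblastoma had Acly lower by -1.44 ± 0.46 (adjusted p = 0.0377, limma) and Me1 by -1.79 ± 0.56 (adjusted p = 0.0304, limma). Acly was 8.88 and 10.51 in hepatoblastoma and 9.67 to 12.89 in HCC/CC, and Me1 was 7.10 and 9.77 in hepatoblastoma and 8.91 to 11.91 in HCC/CC. The low values came from hepatoblastoma sample 1, while sample 2 lay within the HCC/CC range for both genes. With array weights 0 genes were called, and without HCC/CC tumour 2 there were 3 calls. So 2 of 7 genes fell and 0 rose, where 6.09% of genes tested were called (median -0.99, against 0.02). Scd1 differed by 0.42 ± 0.76 and Thrsp by -3.01 ± 1.22 (adjusted p = 0.107). Lung metastasis of hepatoblastoma had Thrsp at 5.49 and Scd1 at 13.52, and the HCC/CC metastases to intestine and lung had Thrsp at 8.19 and 8.03 and Fasn at 9.44 and 8.68.

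Among sorted cells of 8 organs, untreated liver had 4 of the 7 genes called higher than the mean of the other 7 organs. Of all genes tested, 28.3% were called. Thrsp averaged 10.69 ± 1.05 in liver (SD, n = 5) and 4.27 in the other organs, a difference of 6.41 ± 0.47 (adjusted p = 1.15e-13, limma). Scd1 was 4.38 ± 0.29 higher, Fasn 1.98 ± 0.41 and Acaca 1.49 ± 0.27, all called, though Acaca was not with the mean of its probe sets. Thrsp and Scd1 of liver did not overlap any other organ, as for 2.46% of genes tested. Fasn and Acaca overlapped. Fasn was 8.11 and 7.97 in untreated liver samples 1 and 2, against 8.81 and 9.31 in stomach cells. Acly differed by 0.40 ± 0.12, under the size needed, and Elovl6 and Me1 were not called. Of 26 other lipogenic pathway genes 15 rose and 1 fell, with Elovl3 and Mlxipl, at 10.47 in liver and 6.22 in the other organs, in front.

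Small intestine cells had the elongase high and the desaturase low. Elovl6 was 10.07, 10.32 and 10.12 in small intestine and averaged 6.70 in the other organs, a difference of 3.47 ± 0.52 (adjusted p = 1.53e-06, limma). Scd1 was 4.56, 3.42 and 5.08 in small intestine, a difference of -4.68 ± 0.36 (adjusted p = 5.86e-13, limma). Thrsp (-2.61) and Acly (-1.18) fell as well, so 1 gene rose and 3 fell where 29.4% of genes tested were called.

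Kidney cells had Me1 at 10.49, 10.49, 10.51 and 10.58, a difference of 2.34 ± 0.46 (adjusted p = 6.59e-05, limma). Scd1, by contrast, was 4.62, 4.44, 4.68 and 4.54 in kidney and averaged 9.0 in the other organs. Scd1 (-4.43), Thrsp (-2.09) and Fasn (-1.72) fell, so 1 gene rose and 3 fell where 33.5% of genes were called. Stomach cells, with 2 samples, had Me1 higher by 2.31 ± 0.63 and Thrsp lower by 2.04 (19.1% called). The Thrsp call was lost without either sample, and the Me1 call without stomach sample 2.

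Lung cells were lowest for Me1. It was 6.22, 5.36, 5.43 and 5.53 in lung and averaged 8.87 in the other organs, a difference of -3.23 ± 0.46 (adjusted p = 6.53e-07, limma). Elovl6 (-1.98) and Fasn (-1.63) fell and Scd1 (1.24) rose, a call lost without lung sample 1 or with the mean of probe sets, where 31.4% of genes were called. In prostate cells Scd1 rose by 1.73 and Thrsp fell by 2.52, 2 of 7 genes where 17.7% were called. Salivary gland cells had Scd1 (2.45), Thrsp (1.64) and Acly (1.04) higher and Elovl6 lower by 1.58, where 20.4% were called. The Thrsp and Elovl6 calls of salivary gland were lost with any 1 of its 3 samples left out. Uterus cells had Thrsp higher by 1.89 and Scd1 lower by 1.22, where 22.7% were called, and the Thrsp call was lost with the mean of probe sets. The same 8 organs entered each of these comparisons, so they are not independent. Thrsp averaged 3.25 in kidney, 2.79 in small intestine, 3.29 in stomach and 2.87 in prostate cells, each under the filter value. The mean of the other organs in each of these Thrsp falls includes liver, at 10.69. The part of liver in the Thrsp falls was not tested.

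**Figure D4:**
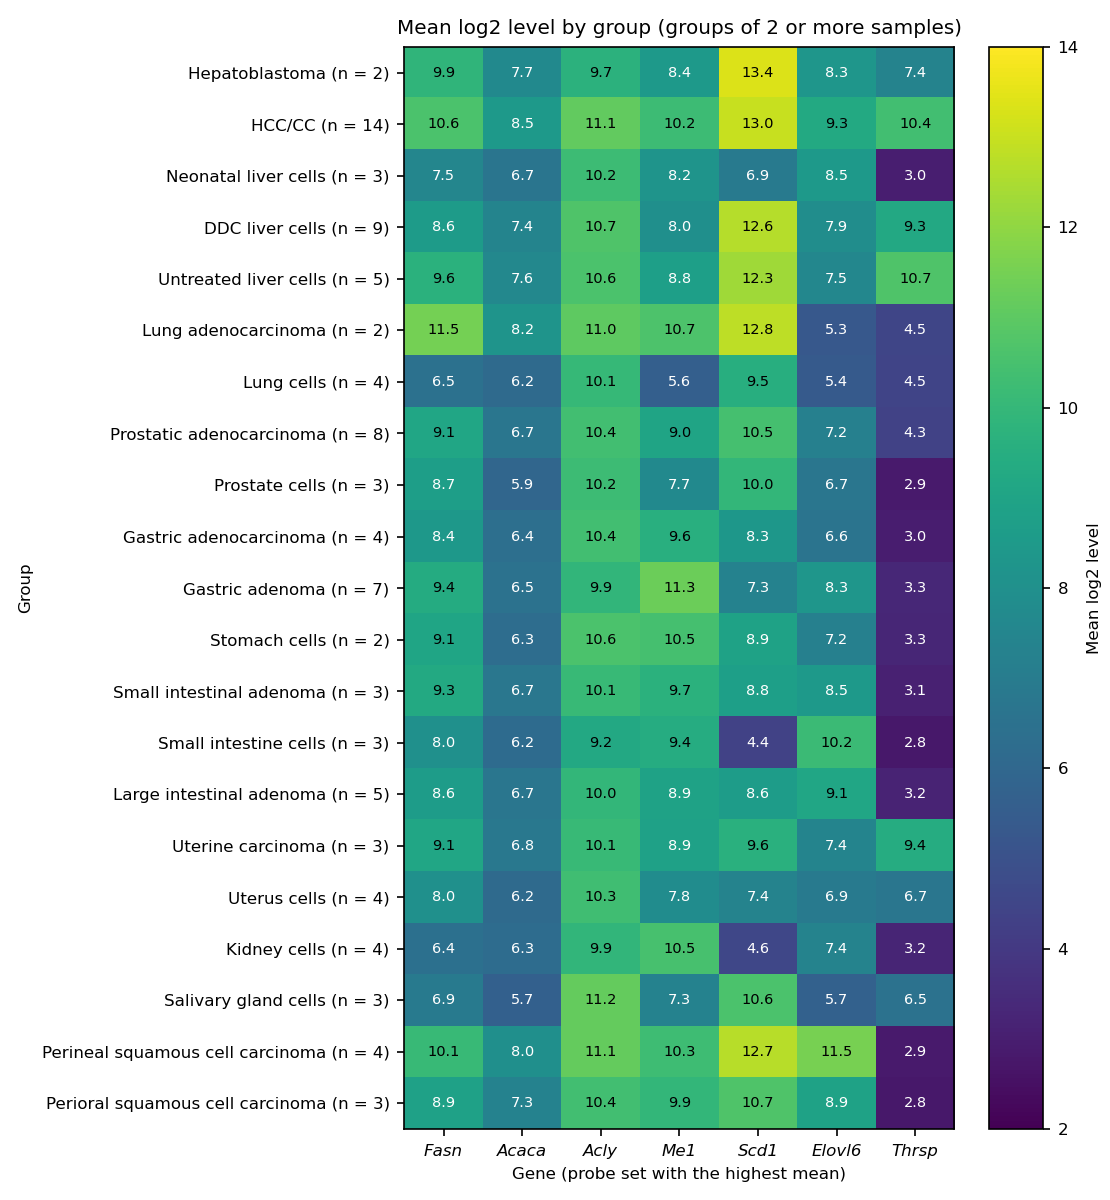
Mean log2 level of each gene (columns) in the 21 groups of 2 or more samples (rows), tumours above the sorted cells of their organ; numbers in the cells are the means and colour runs from 2 to 14. Scd1 is high in liver tumours, DDC and untreated liver cells, lung adenocarcinoma and perineal carcinoma and lowest in small intestine and kidney cells.

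Across all 29 groups the genes followed each other only in part. The r of group means was 0.80 for Fasn with Acaca, 0.663 for Scd1 with Acaca and 0.635 for Scd1 with Fasn, but -0.192 for Thrsp with Me1 and -0.195 for Acly with Elovl6. The highest mean was that of untreated liver cells for Thrsp (10.69), lung adenocarcinoma for Fasn (11.48), HCC/CC for Acaca (8.45), perineal squamous cell carcinoma for Elovl6 (11.53) and gastric adenoma for Me1 (11.31). For Scd1 it was the hepatoblastoma lung metastasis (13.52), a single sample, and for Acly the single gastric liver metastasis (11.38). Of 20 steps between neighbours in the order of the 21 groups with replicates, only 1 to 3 per gene exceeded the larger SD of the 2 groups. The single such step of Elovl6 was at the top, where perineal carcinoma stood 1.36 above small intestine cells. For Scd1 neonatal liver cells stood 2.34 above kidney cells, and for Me1 salivary gland cells stood 1.70 above lung cells, the group with the lowest Me1. The genes most like the members' mean pattern over the 29 groups were Klhl25 (r = 0.692), Rarres1 (0.684), Urah (0.681), Glo1 (0.674), Insig2 (0.671) and Atl3 (0.67), of 13884 genes ranked.

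Of the 6 comparisons of a tumour with sorted cells of the same organ outside the liver, lung adenocarcinoma had the largest differences, on 2 tumours. Fasn was 11.43 and 11.53 in the tumours and 7.50, 6.86, 5.03 and 6.56 in lung cells, a 31.8-fold higher level (difference 4.99 ± 0.68, adjusted p = 0.00126, limma). Me1 was 11.42 and 9.89 in the tumours and 6.22, 5.36, 5.43 and 5.53 in lung cells (difference 5.02 ± 0.64, adjusted p = 0.000847, limma). Scd1 was 12.99 and 12.58 in the tumours and 10.32, 8.96, 8.90 and 9.94 in lung cells (difference 3.26 ± 0.44, adjusted p = 0.00125, limma). The groups did not overlap for these 3 genes, nor for Acly and Acaca, which were not called. Of all genes tested, 37.2% did not overlap. Fasn, Me1 and Scd1 were called where 8.11% of genes tested were. Second probe sets rose by 4.54 for Me1 and 4.26 for Scd1. Acaca differed by 2.03 ± 0.57 (adjusted p = 0.0533), and Elovl6 (-0.11 ± 0.70) and Thrsp (0.05 ± 0.83) were not called. The median difference was 2.03, against 0.36 over all genes. Acss2, which makes acetyl-CoA from acetate, rose by 3.59. Hepatocyte marker means were 4.90 and 6.92 in the tumours and 3.53 to 4.46 in lung cells. Lung cell sample 3, with the lowest Fasn, had the lowest upper quartile of any array, 5.76. The part of these measures in the differences was not tested.

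Uterine carcinoma had Thrsp, Scd1, Fasn and Me1 higher than uterus cells, 4 of 7 genes where 18.7% were called (median 1.01, against 0.16). Scd1 was 9.37, 10.17 and 9.34 in tumours and 6.98, 7.74, 7.44 and 7.34 in uterus cells (difference 2.26 ± 0.26, adjusted p = 0.00106, limma). Scd1 did not overlap between groups, nor did Thrsp, Fasn and Acaca, where 41.6% of genes tested did not. Thrsp was 7.85, 11.27 and 9.18 in tumours and 7.61, 6.97, 5.06 and 7.29 in uterus cells (difference 2.70 ± 0.86, adjusted p = 0.0456, limma). The Thrsp call was lost without any 1 of 6 of the 7 samples. Scd1 alone was called with each sample left out. Fasn rose by 1.04 and Me1 by 1.01. Hepatocyte markers had list means of 3.87, 4.90 and 3.47 in carcinomas 1 to 3 and 3.55 to 4.01 in uterus cells. Carcinoma 2, with the highest Thrsp, had the highest of these means. The part of hepatocyte content in its Thrsp level was not tested.

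Small intestinal adenoma had Scd1 at 9.39, 8.24 and 8.66, against 4.56, 3.42 and 5.08 in small intestine cells, a 21.3-fold higher level (difference 4.41 ± 0.48, adjusted p = 0.00135, limma). Fasn rose by 1.25 ± 0.21 and Elovl6 fell by 1.66, at 7.67, 9.18 and 8.69 in adenoma and 10.07, 10.32 and 10.12 in cells. No sample of these 3 genes overlapped between groups, nor of Acly and Acaca, which were not called. Of all genes tested, 51.6% did not overlap. With all groups in 1 fit the Fasn and Elovl6 calls were lost (adjusted p = 0.176 and 0.189). In the main fit Scd1, Fasn and Elovl6 were called where 22% of genes tested were, 2 higher and 1 lower (median 0.70, against 0.12). Only 6 genes were tested, since Thrsp lay under the filter value in both groups.

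Gastric adenoma had Elovl6 at 7.65, 8.52, 8.20, 8.46, 8.94, 7.87 and 8.42, against 7.43 and 6.99 in stomach cells. This was the 1 gene of 6 tested that was called (difference 1.09 ± 0.31, adjusted p = 0.0381, limma), where 11.1% of genes tested were, and the call was lost in 6 of 9 fits with 1 sample left out and under 4 other settings. Thrsp was not tested there, with means of 3.32 and 3.29. Gastric adenocarcinoma had 0 of 6 genes called, against 28.4% of genes tested. Fasn (-0.66 ± 0.28) and Me1 (-0.92 ± 0.34) had an unadjusted p under 0.05 by limma.

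Prostatic adenocarcinoma had Me1 higher than prostate cells, at 8.15 to 9.60 in tumours (median 9.10) and 7.59, 7.72 and 7.75 in cells. The groups did not overlap, nor did those of Thrsp and Acaca, where 27.3% of genes tested did not. The Me1 difference was 1.32 ± 0.24 (adjusted p = 0.00155, limma). It was the 1 gene of 7 called, where 21.1% were called. With all groups in 1 fit the call was lost (adjusted p = 0.0509). Thrsp was 3.27 to 4.31 in tumours 1 to 7 and 9.72 in tumour 8, against 2.71, 3.06 and 2.84 in prostate cells. It was not called (difference 1.48 ± 1.15, adjusted p = 0.321). Adipocyte markers, 7 of 10 measured, had a list mean of 8.20 in tumour 8, against 4.95 to 5.91 in the other tumours and 5.0 to 5.4 in prostate cells, and Adipoq reached 10.83 in it. Their part in the Thrsp value was not tested.

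**Figure D5:**
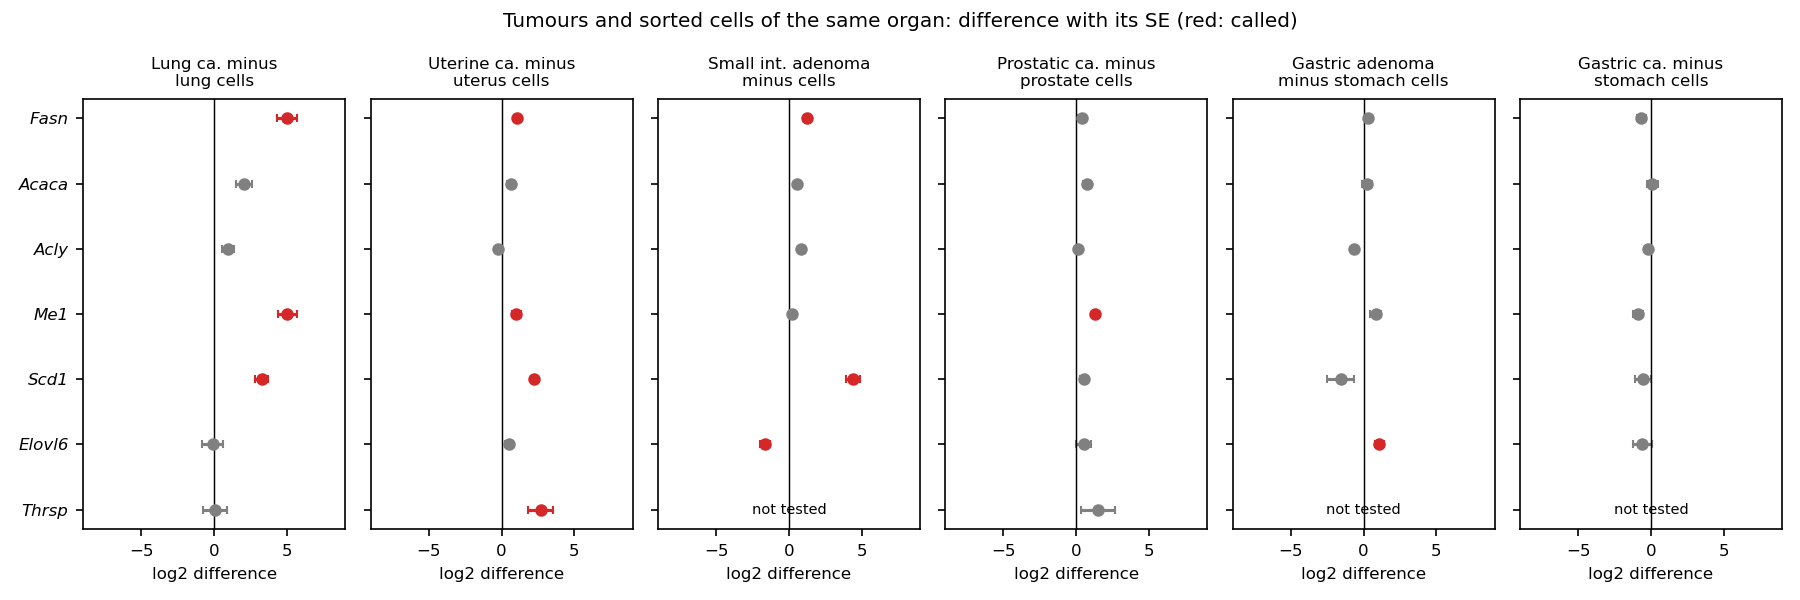
Log2 difference (horizontal axis) with its SE for each gene (rows) in 6 comparisons of tumours with sorted cells of the same organ, tumour minus cells; red points were called, grey points were not, and Thrsp was not tested where both groups lay under the filter value. Fasn and Me1 lie near 5 in lung adenocarcinoma, and Elovl6 lies below 0 in small intestinal adenoma.

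Perineal and perioral squamous cell carcinomas were compared with the mean of 5 groups of internal carcinomas, from liver (HCC/CC), prostate, stomach, uterus and lung. The single periorbital tumour entered no test, with Elovl6 at 9.19 and Thrsp at 3.03. Elovl6 averaged 11.53 ± 0.53 in perineal carcinoma (SD, n = 4), with samples at 11.53, 11.86, 10.78 and 11.95. Perioral carcinoma had 8.76, 9.26 and 8.79, and the mean of both skin sites was 10.23, against 7.17 in internal carcinomas (difference 3.06 ± 0.57, adjusted p = 1.31e-05, limma). Internal group means of Elovl6 were 9.29 in HCC/CC, 7.42 in uterine, 7.24 in prostatic, 6.62 in gastric and 5.30 in lung carcinoma. The HCC/CC mean thus lay above every perioral sample, and HCC/CC tumour 13, at 12.82, lay above every perineal sample. Thrsp was 2.65 to 2.98 in the perineal and perioral carcinomas, near the background of the array, against a mean of 6.33 in internal carcinomas (difference -3.50 ± 0.71). That mean covers group means of 10.39 in HCC/CC and 9.43 in uterine carcinoma, but 4.51 in lung, 4.35 in prostatic and 2.98 in gastric adenocarcinoma, so not every internal group lay above the skin carcinomas. So 1 gene rose and 1 fell of 7, where 24.3% of genes tested were called (median 0.35, against -0.12). Elovl3 was 8.95 in squamous carcinomas and 3.31 in internal carcinomas. Cholesterol synthesis genes rose in 14 of 15 and fell in 0, led by Idi1 (2.71) and Sqle (2.29). Sebaceous markers, of which 4 of 9 were measured and Elovl3 is 1, averaged 8.7 to 9.7 in perineal and 7.5 to 7.7 in perioral carcinoma. Krt79, a keratin of sebaceous ducts, averaged 12.15 in perineal carcinoma, while Mc5r stayed at 3.25, near background. Their part in the Elovl6 difference was not tested.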

How the data were processed

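Per the labels' protocols, sorted cells were isolated with beads against Prominin1 after dissociation, red cell lysis and dead cell removal, and their RNA was extracted with a PicoPure kit, while tumour RNA was extracted with an RNeasy kit. The deposited values are log2 levels per probe set. Partek 6.6 is named in the submitters' processing notes, and the sources used here do not give the background correction or normalization. Of 45141 probe sets, 28898 had 1 gene in the annotation, for 17097 genes. The probe set with the highest mean over all samples stood for each gene.

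Each comparison was fitted with limma 3.58.1 in R 4.3.3 on genes whose mean passed the 40th percentile in a group compared, with Benjamini-Hochberg adjustment over all genes tested. A call needs an adjusted p under 0.05 and a difference of at least 1. All sorted groups shared 1 fit, as did primary tumours, and comparisons of tumours with sorted cells used the groups named. The number of arrays limits the precision. The fits were tested on simulated data. Settings also tried were no filter, median centring, quantile normalization, averaging over probe sets, leaving out those named _s_at or _x_at, all groups in 1 fit, array weights, tumours with title numbers over 400, each sample left out, and 2 sets of samples left out after seeing the data. All 7 measured genes are described, and other lists are named by their 4 largest called differences, except where the text says otherwise. Members and lists were chosen with earlier results of these data known. Promoter sequences came from RefSeq on GRCm38.p6.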

Additional observations from a re-analysis of the deposited data

Results flagged for a closer look

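Single samples stood apart from their group for 4 of 70 gene and group pairs of 4 to 10 samples, where chance flags about 1 in 20. Thrsp was 9.72 in prostatic adenocarcinoma 8, and the nearest other tumour had 4.31. Acaca was 7.83 in the same tumour, and the nearest other had 6.66. Elovl6 was 9.14 in prostatic adenocarcinoma 2, and the nearest other had 7.49. Acly was 10.65 in perineal squamous cell carcinoma 3, and the nearest other had 11.27.

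Tumour differences opposed each other between tissues for 2 genes, with each difference at least 1 in size and the difference between them tested by limma over 14 tissue pairs. These margins were chosen after seeing the data. The Scd1 difference of gastric adenoma minus that of small intestinal adenoma was -5.98 (adjusted p = 0.00702), minus that of uterine carcinoma -3.82 (adjusted p = 0.0187) and minus that of lung adenocarcinoma -4.83 (adjusted p = 0.0118). In gastric adenoma itself Scd1 was not called, at -1.57 ± 0.94. The Elovl6 difference of gastric adenoma minus that of small intestinal adenoma was 2.74 (adjusted p = 0.00428).

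Among the metastases, which entered no test, 2 single samples lay more than 1 above the highest primary tumour. Thrsp was 5.67 in the liver metastasis of gastric adenocarcinoma and at most 3.44 in primary tumours. Scd1 was 11.35 in the liver metastasis of uterine carcinoma and at most 10.17 in primary tumours. The hepatocyte marker mean of the uterine liver metastasis was 10.48, against 3.47 to 4.90 in primary tumours, and the part of liver tissue in its Scd1 level was not tested.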

How the results depend on the processing

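Apart from the counts given here, counts of lipogenic genes called stayed within 1.5 times those reported under every alternative run. Of 366 differences of called genes, 0 changed direction and 34 were no longer called. With array weights the counts were 5 for neonatal against untreated, 4 for neonatal against DDC, 0 for hepatoblastoma against HCC/CC and 0 for gastric adenoma. With all groups in 1 fit they were 0 for DDC against untreated, 2 for HCC/CC against untreated, 4 for HCC/CC against DDC, 3 for hepatoblastoma against neonatal, 1 for hepatoblastoma against HCC/CC, 1 for stomach, 0 for prostatic adenocarcinoma, 0 for gastric adenoma, 1 for small intestinal adenoma and 1 for uterine carcinoma. With the mean of probe sets they were 2 for DDC against untreated, 1 for HCC/CC against untreated, 2 for salivary gland, 1 for stomach, 1 for uterus and 0 for gastric adenoma. Quantile normalization gave 2 for DDC against untreated and 0 for gastric adenoma. Median centring gave 1 for HCC/CC against untreated and 1 for uterine carcinoma, and no filter gave 1 for hepatoblastoma against HCC/CC and 2 for uterine carcinoma. Tumours with title numbers over 400 gave 1 for HCC/CC against untreated. Without DDC samples low in Prom1 the count was 0 for DDC against untreated, and without HCC/CC tumours high in cholangiocyte markers it was 2 against untreated and 5 against DDC; both were chosen after seeing the data. The share of all genes called under each setting is not given here, and the cause of these changes was not tested.

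With each sample left out in turn, the count ran from 3 to 4 for neonatal against untreated, 0 to 2 for DDC against untreated, 0 to 1 for HCC/CC against untreated, 2 to 3 for HCC/CC against DDC, 0 to 6 for hepatoblastoma against neonatal and 0 to 3 for hepatoblastoma against HCC/CC. It ran from 4 to 5 for liver, 3 to 4 for lung, 0 to 1 for stomach, 0 to 1 for gastric adenoma, 0 to 1 for gastric adenocarcinoma, 3 to 4 for small intestinal adenoma, 1 to 3 for uterine carcinoma and 3 to 4 for lung adenocarcinoma. It was 2 in every fit for neonatal against DDC, prostate, salivary gland, uterus and squamous carcinomas, 4 for kidney and small intestine, and 1 for prostatic adenocarcinoma. No paired analysis was possible because replicate numbers were given only in the order of the records. Levels near background bound a difference from below, and the labels give no batch to test.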
